A study of Mus musculus with 30 samples.

Results

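The genes described here encode 9 proteins that the liver releases into the blood, known as hepatokines or as members of hepatokine families: *Enho*, *Angptl4*, *Angptl8*, *Fgl1*, *Lect2*, *Ahsg*, *Inhbc*, *Inhbe*, and *Gdf15*. They were chosen by name for this function, and all 9 were found, by symbol among the 54429 genes of a time course and by Ensembl identifier among the 55471 genes of a genotype experiment. The time course held livers of male C57BL/6J mice aged 2, 6, and 12 months, taken at ZT1, 5, 9, 13, 17, and 21, with 1 library for each age and time (18 libraries). ZT is the time in hours after lights on, in a cycle with equal hours of light and dark, and the mice had chow at all times. The genotype experiment held livers of WT mice and of mice labelled Egr1_KO at the same ages, with 1 library for each genotype, age, and collection (12 libraries, 6 pairs). The KO was made with *Alb*-Cre, which acts in hepatocytes, on floxed *Egr-1*, in lines of strain 129 origin crossed back to C57BL/6J, and the controls were littermates. Collections were at the time when the Egr-1 protein was highest (H) or lowest (L), which was ZT13 and ZT17 at 2 months, ZT9 and ZT21 at 6 months, and ZT5 and ZT21 at 12 months. Age and ZT therefore cannot be told apart in the genotype experiment. The figure legends of the study count mice per group for the RNA-seq, but whether a library pooled them was not stated, and no batch was given.

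Hepatokines carry signals from the liver to fat, muscle, vessels, and the brain, and several of them follow feeding, fasting, or inflammation. Adropin, the peptide made from *Enho*, is linked to the use of fuel and to insulin sensitivity. *Angptl4* and *Angptl8* encode inhibitors of lipoprotein lipase, the enzyme that takes fat out of circulating lipoproteins, and the former is raised by fasting while the latter is raised by feeding. *Fgl1* (hepassocin), *Lect2*, and *Ahsg* (fetuin-A) encode proteins made mainly by hepatocytes, and *Inhbc*, *Inhbe*, and *Gdf15* encode ligands of the TGF-β superfamily.

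All 9 genes are protein coding. On GRCm38 (GENCODE M21), *Enho* lies on chromosome 4 (41638144 to 41640324, minus strand), *Angptl4* on chromosome 17 (33773750 to 33781830, minus strand), and *Angptl8* on chromosome 9 (21835510 to 21837347, plus strand). *Fgl1* lies on chromosome 8 (41191434 to 41215156, minus strand), as does *Gdf15* (70629393 to 70632456, minus strand). *Lect2* lies on chromosome 13 (56542464 to 56548502, minus strand), and *Ahsg* on chromosome 16 (22891277 to 22899449, plus strand). *Inhbc* (127356322 to 127370431) and *Inhbe* (127348857 to 127354411) are neighbours on the minus strand of chromosome 10. *Ahsg* shares 62 exon bases with the antisense gene *Gm30505*, *Inhbc* shares 268 with the antisense gene *Gm47200*, and *Enho* shares 15 with *Dnaic1* on the other strand. Whether strand was used in counting is not given in the sources used here, so reads in these bases cannot be assigned to 1 of the genes.

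*Enho* is shown by its coding sequence, because the whole peptide comes from 1 of the gene's 2 exons and the gene went opposite ways at 6 months in the 2 experiments. The coding sequence of transcript Enho-201 (chr4:41638612-41638842, GRCm38, minus strand, read 5′ to 3′) has 231 bases, or 76 codons before the stop, within a transcript of 1269 bases. Its start and stop codons are in capitals.
Enho: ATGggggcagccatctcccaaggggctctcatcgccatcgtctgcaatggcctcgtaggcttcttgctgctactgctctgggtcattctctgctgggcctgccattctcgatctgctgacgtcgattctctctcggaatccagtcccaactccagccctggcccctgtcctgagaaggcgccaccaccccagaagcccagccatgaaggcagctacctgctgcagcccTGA

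Promoters from 250 bases before to 50 bases after the start of transcription were given by RefSeq (GRCm38.p6) for 6 of the 9 genes, in 7 windows. They were searched on both strands for 6 motifs: an Egr-1 site (GCGNGGGCG), an E-box (CACGTG), a D-box (TTATGNAA), a CRE half-site (TGACG), the core of a CHOP-ATF4 element (TGATGNAA), and a TATA box (TATAAA). There were 3 matches, with no overlap between them, and they are shown with the bases around them because they are the only matches among these windows. The capitals mark the motif.
Gdf15, E-box: acagggcagggCACGTGtgagcatccag
Angptl8, CHOP-ATF4 core: agccatcagtcTGATGCAAtggctgagcct
Inhbe, CHOP-ATF4 core on the other strand: catcctctttcTTGCATCAtgcatgtccac
The E-box of *Gdf15* (chr8:70632162-70632189, minus strand) begins 83 bases before a RefSeq start, within an exon of a longer GENCODE transcript. The match of *Angptl8* (chr9:21835369-21835398, plus strand) begins 130 bases before the start, outside the gene. The match of *Inhbe* (chr10:127352011-127352040, minus strand) begins 181 bases before the RefSeq start, within an exon of the GENCODE gene. Of all 32544 promoters, 7.17% held the E-box and 3.91% the CHOP-ATF4 core. The Egr-1 site, the D-box, the CRE half-site, and the TATA box stood in 5.6%, 3.39%, 20.9%, and 13.6% of all promoters and in none of the 7 windows of these genes, which says only that these letters are not there.

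Total counts were 13375377 to 16557378 per library in the time course and 13747706 to 21748956 in the genotype experiment. Counts were scaled to CPM, which relates the count of a gene to the library total multiplied by its TMM factor. All 6 hepatocyte markers (*Alb*, *Ttr*, *Cps1*, *Apob*, *Serpina1a*, and *Tat*) were detected in each age and genotype. The summed CPM of these markers was 38373 to 52947 in the libraries labelled KO and 66646 to 84361 in WT, with no overlap. In the time course, the summed CPM of the 4 neutrophil markers was 20.3 to 135 at 6 months against 1.89 to 5.15 at 2 months and 4.01 to 10.6 at 12 months, with *Ly6g* and *Mpo* at 0 at 12 months. In bulk liver, fewer cells of a type and less RNA of the marker genes in each cell cannot be told apart.

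Per kb of exon, *Ahsg* was the most abundant of the 9 transcripts in both experiments, with a median of 2052 CPM per kb in the time course (lowest 1461, highest 2946). Its range lay above that of each of the others. The medians of the time course then ran from *Lect2* (150 CPM per kb) and *Angptl8* (115) through *Fgl1* (63.3), *Enho* (31.3), *Inhbc* (16.6), and *Angptl4* (11.6) to *Inhbe* (5.32). *Gdf15* was the least abundant at 1.56 CPM per kb (0.593 to 3.92), which rests on 16 to 99 counts per library. Apart from *Ahsg* and *Lect2*, neighbours in this order overlapped in range.

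**Figure D1:**
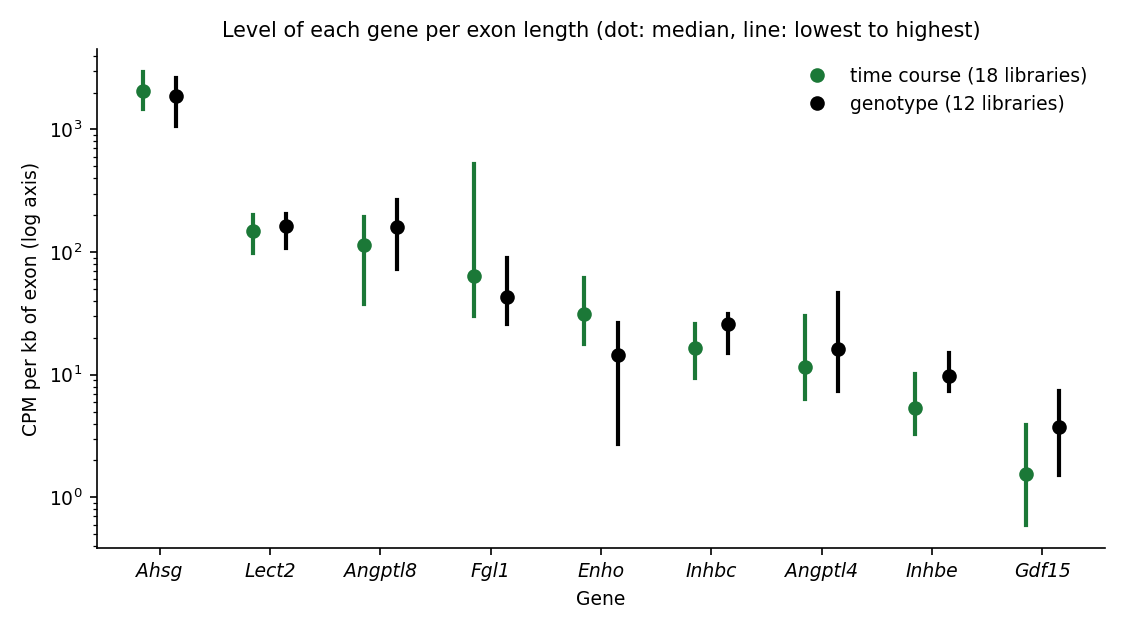
Level of each gene in CPM per kb of exon (log axis), with genes ordered by their median in the time course. Dots are medians and lines run from the lowest to the highest library, in green for the 18 time-course libraries and in black for the 12 genotype libraries. *Ahsg* stands alone at the top, with a time-course median of 2052, and *Gdf15* is lowest at 1.56.

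The first question was whether these transcripts differed between ages. The 6 libraries of an age at different ZT stood in for replicates, with ZT as a block in edgeR's quasi-likelihood F-test. Between 6 and 2 months, 2 of the 9 genes passed an adjusted p of 0.05, *Fgl1* and *Enho*, and both were higher at 6 months. Of all 14924 genes tested, 12.8% passed, 6.41% as higher and 6.35% as lower. Between 12 and 2 months, only *Ahsg* passed, as lower at 12 months, where 11.1% of all genes passed (5.9% higher and 5.21% lower). Between 12 and 6 months, only *Fgl1* passed, as lower at 12 months, where 14.9% of all genes passed (7.64% higher and 7.3% lower).

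*Fgl1* encodes hepassocin, a mitogen of hepatocytes that is also a ligand of the inhibitory receptor LAG-3. At 2 months it ranged from 207 CPM at ZT17 to 283 CPM at ZT21, with a median of 225. At 6 months the values at ZT1, 5, 9, 13, 17, and 21 were 1852, 2334, 2075, 1719, 1220, and 1159 CPM. At 12 months they were 549, 348, 206, 162, 279, and 134 CPM. Each library at 6 months was thus above each library at the other ages, and at 12 months the ZT1 library was the highest. The log2 fold change of 6 over 2 months was 2.84 (SE 0.25, adjusted p = 1.73e-06), higher at 6 of 6 time points. That of 12 over 6 months was -2.70 (SE 0.25, adjusted p = 4.67e-06), lower at 6 of 6. Between 12 and 2 months, it was 0.14 (SE 0.23, adjusted p = 0.758), with 3 time points each way.

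Genes of the acute phase, which hepatocytes raise during inflammation, moved with *Fgl1*. All 16 acute-phase genes listed were higher at 6 than at 2 months and lower at 12 than at 6 months, with median log2 fold changes of 2.33 and -2.41, beside medians of 0.0061 and -0.010 over all genes tested. *Saa1*, serum amyloid A, had a median of 146 CPM at 2 months, 12186 at 6 months, and 70.2 at 12 months. Its range was 80.3 to 330 CPM at 2 months and wider, 24.9 to 1541 CPM, at 12 months. Between 12 and 2 months, 1 of the 16 passed, *Saa4*, which was lower (log2 fold change -1.02, SE 0.19, adjusted p = 0.00208). The neutrophil markers given above were also highest at 6 months. The summed macrophage markers had medians of 390, 508, and 325 CPM at 2, 6, and 12 months, the cholangiocyte markers 37.0, 112, and 21.2 CPM, and the hepatocyte markers 93083, 71117, and 93263 CPM. The part of these cell types in the level of *Fgl1* and of the acute-phase genes was not tested. In the genotype experiment, the 4 libraries at 6 months held 114 to 398 CPM of *Fgl1* and 48.9 to 610 CPM of *Saa1*, and overlapped those at 2 months (126 to 359 and 60.4 to 525 CPM).

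*Enho*, the gene of adropin, was 31.0 to 39.7 CPM at 2 months (median 34.7) and 47.5 to 63.1 CPM at 6 months (median 53.5), without overlap. At 12 months it ranged more widely, from 22.8 CPM at ZT13 to 77.5 CPM at ZT1 (median 36.1), a 3.41-fold span. The log2 fold change of 6 over 2 months was 0.63 (SE 0.18, adjusted p = 0.0307), higher at 6 of 6 time points. This call was near the threshold. It was lost without the ZT block (adjusted p = 0.0601) and when 1 of 7 libraries was left out (2 months at ZT1, 5, 9, or 17, and 6 months at ZT9, 13, or 21), with adjusted p up to 0.0909. Between 12 and 2 months, the log2 fold change was 0.22 (SE 0.18, adjusted p = 0.499).

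*Ahsg* encodes fetuin-A, a carrier of calcium phosphate that also inhibits the insulin receptor. It had a median of 5375 CPM at 2 months (4728 to 6473), 4508 CPM at 6 months (3780 to 5471), and 3798 CPM at 12 months (3210 to 4312). The ranges at 2 and 12 months did not overlap, and that at 6 months overlapped both. The log2 fold change of 12 over 2 months was -0.51 (SE 0.10, adjusted p = 0.00346), lower at 6 of 6 time points, and it passed without each library in turn. At 6 over 2 months, *Ahsg* was also lower at 6 of 6 time points, with a log2 fold change of -0.29 (SE 0.10, adjusted p = 0.0674 in edgeR). It passed in DESeq2 (adjusted p = 0.00991), and in edgeR without the 12-month library at ZT17 (0.0492).

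The other 6 genes did not pass between ages in edgeR with all 18 libraries and the filter on low counts. *Lect2*, which encodes a chemotactic factor, was lower at 12 than at 2 months at 6 of 6 time points, with medians of 115 and 146 CPM and a log2 fold change of -0.36 (SE 0.13, adjusted p = 0.0837). *Inhbe* encodes the beta E subunit of activin and inhibin. Its medians were 20.1 CPM at 12 months and 30.7 CPM at 2 months, with a log2 fold change of -0.57 (SE 0.19, adjusted p = 0.0566). Fitted on the libraries of these 2 ages alone, both passed, *Lect2* with an adjusted p of 0.0121 and *Inhbe* with 0.0350. *Inhbe* also passed in DESeq2 (adjusted p = 0.0252). Of 18 edgeR fits that each left out 1 library, *Inhbe* passed in 5 and *Lect2* in 1. In the genotype experiment, whose ages were taken at different ZT, neither was lower at 12 than at 2 months in edgeR. The log2 fold changes there were 0.093 for *Lect2* (SE 0.16, adjusted p = 0.773) and 0.050 for *Inhbe* (SE 0.19, adjusted p = 0.908). *Inhbc*, the beta C subunit, ranged from 17.5 to 47.8 CPM over all 18 libraries. *Gdf15*, whose product is released under cell stress and lowers appetite through a receptor in the hindbrain, had medians of 2.50, 2.76, and 2.98 CPM at 2, 6, and 12 months. *Angptl4* and *Angptl8* overlapped between all ages and are described by time of day.

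**Figure D2:**
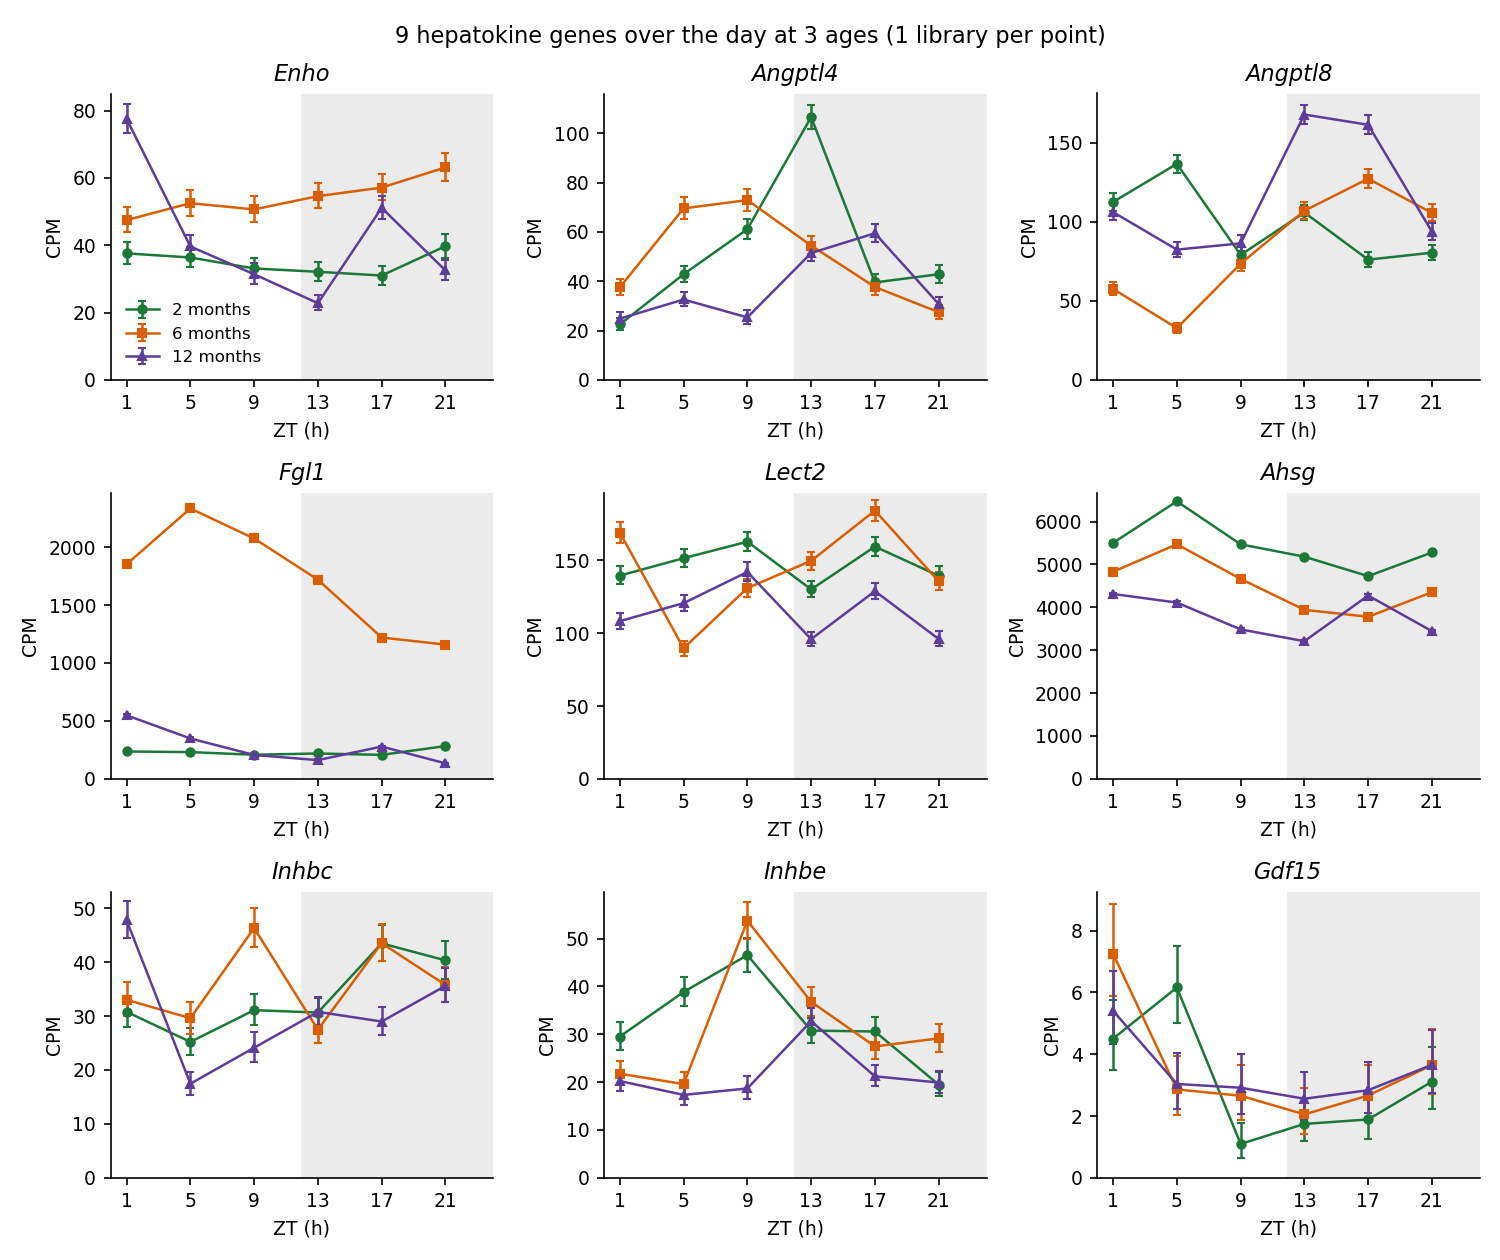
CPM of the 9 genes against ZT in hours at 2 months (green circles), 6 months (orange squares), and 12 months (purple triangles), with 1 library per point, exact Poisson 95% intervals as bars, and grey for the dark phase. *Fgl1* at 6 months lies between 1159 and 2334 CPM, above all points of the other ages, and *Gdf15* is highest at ZT1 or ZT5 at each age.

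The second question was whether the transcripts followed the day. Over the 3 ages together, a 24-h cosine curve passed in 3 of the 9 genes, *Gdf15*, *Angptl4*, and *Inhbe*, where 14.4% of all genes passed. *Gdf15* peaked at ZT1.18 (adjusted p = 0.00326), and its log2 level swung by 0.71 to either side of the mean (the amplitude). Its values at ZT1 were 4.51, 7.25, and 5.41 CPM at 2, 6, and 12 months, and at ZT13 they were 1.74, 2.05, and 2.56 CPM. The ZT1 values were above the ZT13 values at each age, and the 2-month value at ZT5, 6.16 CPM, was higher than that at ZT1. This call held without each library in turn, with adjusted p from 0.00144 to 0.0158.

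*Angptl4* peaked close to the onset of dark, at ZT11.8, with an amplitude of 0.57 (adjusted p = 0.0216). At 2 months it rose from 22.5 CPM at ZT1 through 42.8 and 61.1 to 107 CPM at ZT13, and was 39.5 and 42.8 CPM at ZT17 and ZT21. At 6 months the highest value, 72.9 CPM, was at ZT9, and at 12 months 59.5 CPM at ZT17. The test of a difference in rhythm did not pass for *Angptl4* between 2 and 6 months (adjusted p = 0.340). Without the 2-month library at ZT1 or at ZT13, the call over the 3 ages was lost (adjusted p = 0.0629 and 0.0803), as it was with ZT as a factor in place of the curve (0.132).

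*Inhbe* peaked at ZT10.9 with an amplitude of 0.37 (adjusted p = 0.0482). Its highest value was 46.5 CPM at ZT9 at 2 months, 53.7 CPM at ZT9 at 6 months, and 32.7 CPM at ZT13 at 12 months. This call was lost when 1 of 13 of the 18 libraries was left out, with adjusted p from 0.0506 to 0.121. The other 6 genes did not pass in edgeR with all 18 libraries. Of these, *Ahsg* had the smallest adjusted p, 0.117, with an amplitude of 0.16 and a peak at ZT3.64. *Ahsg* passed in DESeq2 (adjusted p = 0.0220), and in edgeR without the 12-month library at ZT17 (0.0193).

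*Angptl8*, whose product limits lipoprotein lipase after feeding, had the smallest p of the 9 genes for a change of its daily profile between 2 and 6 months. At 2 months the values at ZT1, 5, 9, 13, 17, and 21 were 113, 137, 79.0, 106, 76.0, and 80.4 CPM. At 6 months they were 57.5, 32.7, 73.5, 107, 127, and 106 CPM. At 12 months they were 106, 82.4, 86.3, 168, 161, and 93.7 CPM. The lowest value at 6 and at 12 months was thus at ZT5, the time of the highest value at 2 months. Fitted within each age, the peak was at ZT4.84 at 2 months (amplitude 0.30, adjusted p = 0.441), at ZT16.5 at 6 months (amplitude 0.88, adjusted p = 0.00785), and at ZT15.7 at 12 months (amplitude 0.48, adjusted p = 0.156).

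The difference in rhythm of *Angptl8* between 2 and 6 months had an adjusted p of 0.0659, just outside the threshold, and that between 2 and 12 months 0.902. That between 2 and 6 months passed in DESeq2 (adjusted p = 0.000101), without a filter on low counts (0.00639), and without the ZT9 libraries (0.00958). These settings called 205, 133, and 50 of all genes, against 16 in the first fit. Without the libraries of any other ZT it did not pass (adjusted p up to 0.621). In edgeR with the filter and all libraries, 0 of the 9 genes passed either test. Of all genes, 0.107% passed between 2 and 6 months and 0.0% between 2 and 12 months. An unadjusted p under 0.05 was reached between 2 and 6 months by *Angptl4* and *Angptl8*, and by 10.3% of all genes. Between 2 and 12 months it was reached by 1 of the 9, *Angptl8*, and by 4.62% of all genes (690 of 14924), and DESeq2 called 0 of the 9.

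Within single ages, 6 values per gene allow an exact permutation test (two-sided, over all 720 orders) no smaller p than 0.0333. That smallest p was reached at 2 months by *Ahsg* and *Inhbe*, where 8.68% of genes reached it, and at 6 months by *Angptl4*, *Angptl8*, *Ahsg*, and *Gdf15*, where 8.2% did. At 12 months only *Gdf15* reached it, where 6.44% of genes did. After adjustment over 12470 genes, the exact p of these was 0.384, 0.407, and 0.518 at the 3 ages. A cosine curve fitted within each age in edgeR passed for *Angptl4* (adjusted p = 0.0145) and *Gdf15* (0.0498) at 2 months, and for *Angptl4* (0.0462) and *Angptl8* (0.00785) at 6 months. Of all genes, 4.58% passed this fit at 2 months, 4.38% at 6 months, and 3.3% at 12 months, where the smallest adjusted p of the 9 was 0.114, for *Enho*.

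The third question was whether deletion of *Egr-1*, a zinc finger transcription factor, changed these genes. *Egr1* itself was 72.4 CPM in WT and 5.54 in KO at 6 months H, 24.9 and 4.92 at 6 months L, and 54.8 and 1.53 at 12 months L. At 2 months L it was 1.45 in WT and 7.43 in the library labelled KO, and at 12 months H 5.83 and 6.11. At 2 months H it was 2.57 and 1.99 CPM. A marked drop was thus seen in 3 of the 6 pairs, and over the 6 pairs *Egr1* did not pass (log2 fold change -1.76, SE 0.78, adjusted p = 0.329). KO below means the library so labelled.

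Over the 6 pairs, with a block for each pair, *Lect2* was higher and *Ahsg* lower in KO, both just inside the threshold. Of all 15342 genes tested, 1.39% passed, 0.684% as higher and 0.71% as lower. *Lect2* in WT and KO was 98.4 and 146 CPM at 2 months H and 149 and 176 CPM at 2 months L. It was 151 and 161 CPM at 6 months H and 123 and 180 CPM at 6 months L. At 12 months it was 148 and 189 CPM at H, and 103 and 160 CPM at L. KO was thus higher in 6 of 6 pairs, by the least at 6 months H, although the ranges of WT and KO overlapped. The log2 fold change was 0.40 (SE 0.083, adjusted p = 0.0484).

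*Ahsg* in WT and KO was 5828 and 4749 CPM at 2 months H and 5516 and 5315 CPM at 2 months L. It was 5294 and 3571 CPM at 6 months H, and 4701 and 3242 CPM at 6 months L. At 12 months it was 2926 and 2342 CPM at H, and 3339 and 2343 CPM at L. KO was lower in 6 of 6 pairs, and the smallest difference was in the pair of 2 months L. The log2 fold change was -0.39 (SE 0.080, adjusted p = 0.0492). The summed hepatocyte markers were also lower in KO, and their part in this result was not tested. Without the pairs of 2 months L and 12 months H, whose *Egr1* did not fall, the log2 fold changes were 0.46 for *Lect2* and -0.48 for *Ahsg*, and neither passed (adjusted p = 0.182 and 0.130). *Lect2* was lost without each of the 6 pairs in turn (adjusted p up to 0.145), and *Ahsg* without each pair but that of 2 months L (up to 0.157). Both calls also depended on the scaling of the libraries in edgeR. With library totals in place of TMM, *Ahsg* was -0.26 and did not pass (adjusted p = 0.0966). With median-of-ratios size factors, *Lect2* did not pass (0.0530).

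*Enho* was lower in KO in 6 of 6 pairs but did not pass (log2 fold change -0.92, SE 0.27, adjusted p = 0.140). In WT and KO it was 33.8 and 21.9 CPM at 2 months H, and 27.1 and 25.5 CPM at 2 months L. At 6 months it was 17.99 and 15.5 CPM at H, and 19.0 and 5.04 CPM at L. At 12 months it was 6.21 and 3.47 CPM at H, and 19.0 and 3.66 CPM at L. The pairs of 6 and 12 months L, both at ZT21, had the widest gaps, with WT 3.78-fold and 5.21-fold above KO on 306 and 86 counts and on 300 and 55 counts. The sizes of the gap thus differed more between pairs than those of *Ahsg*, and the difference of the genotype effect between H and L did not pass (log2 difference 0.85, SE 0.49, adjusted p = 0.992). *Enho* did not pass without any 1 of the 6 pairs (adjusted p from 0.122 to 0.256). Without a filter on low counts it passed (adjusted p = 0.00126), in a fit that called 636 of all genes, against 214 with the filter.

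Of the remaining 6 genes, *Angptl8* was lower in KO in 5 of 6 pairs and, at 6 months L, higher with 205 against 62.6 CPM. In that same pair *Angptl4* was 52.1 CPM in KO and 163 CPM in WT, so that these 2 lipase inhibitors went opposite ways. Neither passed over the 6 pairs (log2 fold change -0.18, SE 0.28, adjusted p = 0.822 for *Angptl8* and -0.26, SE 0.24, adjusted p = 0.681 for *Angptl4*). *Inhbe* and *Gdf15* were 1.92-fold and 2.20-fold higher in KO at 6 months H, and *Inhbc* 1.88-fold lower in KO at 12 months L, each in 1 pair. *Gdf15* was lower in KO in both pairs of 2 months and higher in both of 6 months. The terms that let the genotype effect differ between ages or between collections passed for 0 of the 9 genes in edgeR, where 0.013% and 0.00652% of all genes passed. Unadjusted p under 0.05 was reached for genotype by age by *Angptl8* and *Gdf15*, each with an adjusted p of 1, beside 3.15% of all genes, and for genotype by collection by 0 of the 9 genes, beside 5.1% of all genes. DESeq2 also called none of the 9 in either term.

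**Figure D3:**
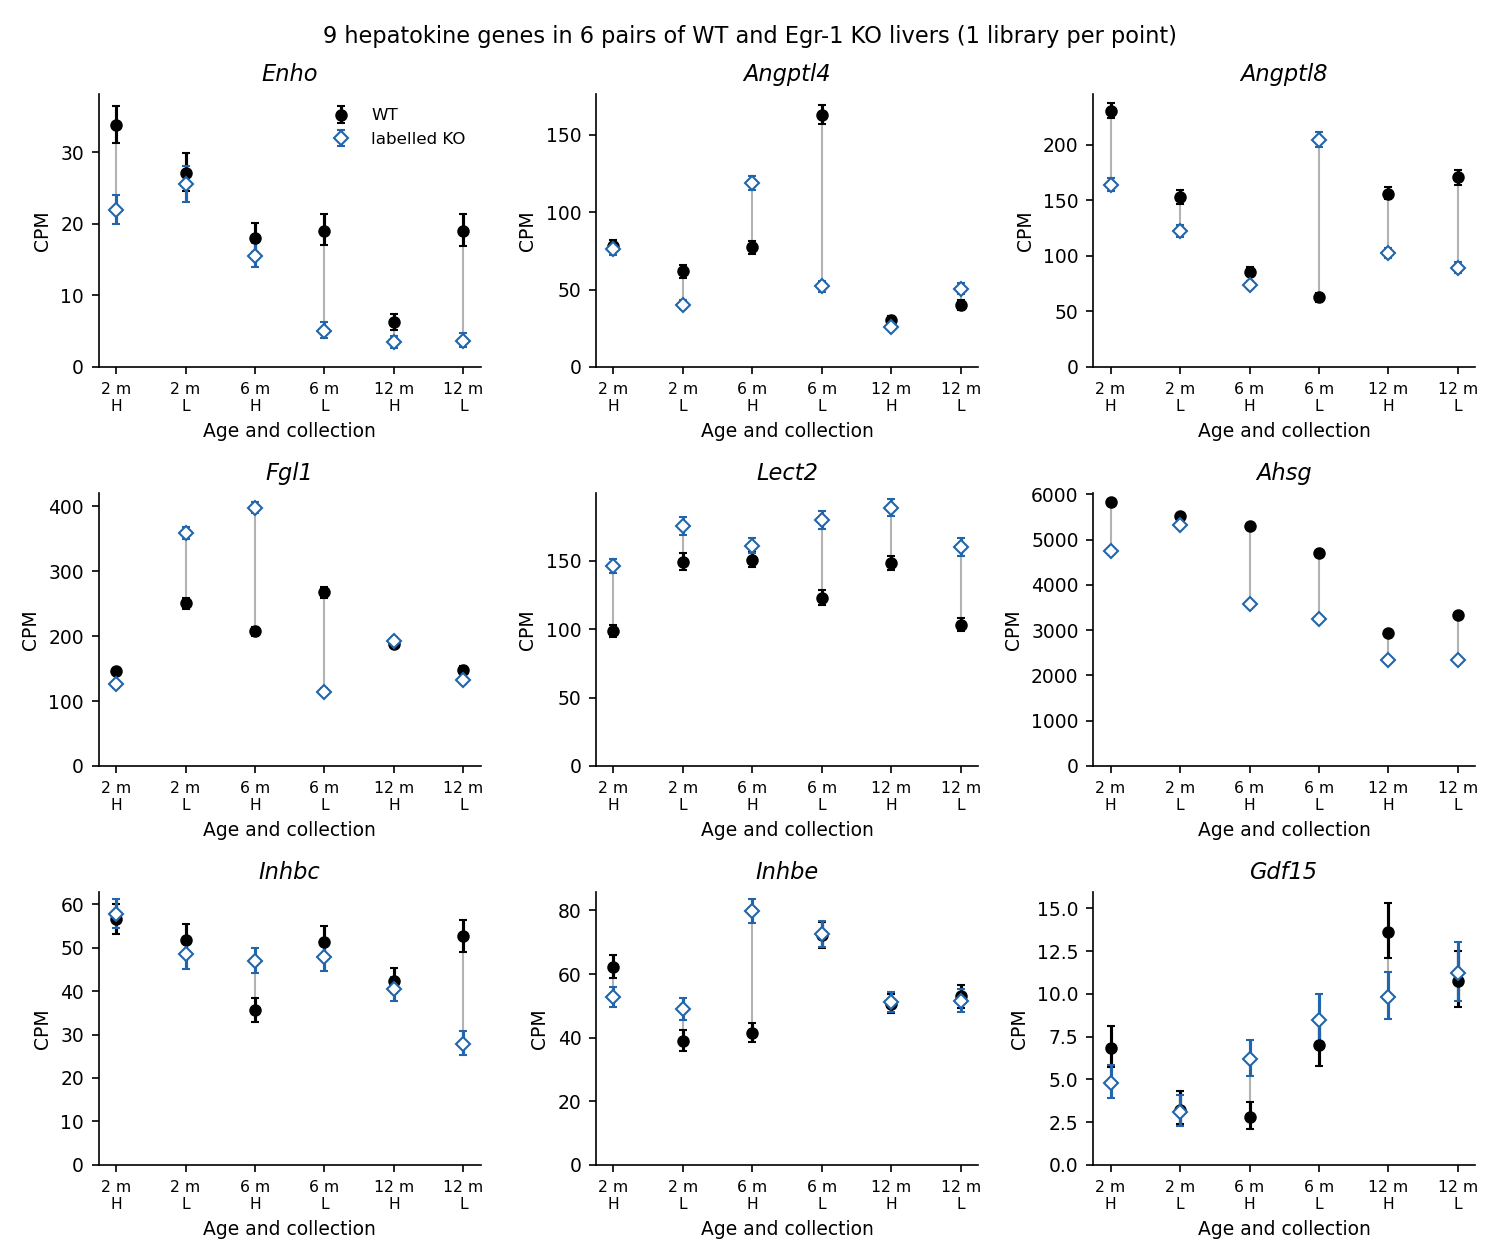
CPM of the 9 genes in the 6 pairs of the genotype experiment, by age in months (m) and collection (H or L), with WT as black circles and the libraries labelled KO as open blue diamonds, 1 library per point, joined within a pair, and exact Poisson 95% intervals as bars. *Lect2* is higher and *Ahsg* and *Enho* are lower in KO in 6 of 6 pairs, and *Angptl8* and *Angptl4* part in opposite directions at 6 months L.

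The genotype experiment gave a second look at age, with 4 libraries at each age, although at different ZT. Between 12 and 2 months, with genotype as a term, 3 of the 9 genes passed: *Ahsg* and *Enho* were lower and *Gdf15* was higher at 12 months. Of all genes, 10.7% passed, 4.93% as higher and 5.79% as lower. *Ahsg* was 4749 to 5828 CPM at 2 months and 2342 to 3339 CPM at 12 months, with a log2 fold change of -0.96 (SE 0.10, adjusted p = 0.000460). Of the 9 genes, only *Ahsg* passed in both experiments between 12 and 2 months, as lower in each, and the experiments share no library. With the WT libraries alone, 2 against 2, the 3 genes kept their direction and did not pass (adjusted p = 0.161 for *Ahsg*, 0.303 for *Enho*, and 0.426 for *Gdf15*).

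*Enho* was 21.9 to 33.8 CPM at 2 months, 5.04 to 19.0 CPM at 6 months, and 3.47 to 19.0 CPM at 12 months. All 4 libraries at 2 months were above all those at 6 and 12 months, among which the ranges overlapped. The log2 fold change of 12 over 2 months was -1.92 (SE 0.42, adjusted p = 0.0141). It was lost without the library labelled KO at 12 months H (adjusted p = 0.0571). In the time course, by contrast, *Enho* at 12 months was 22.8 to 77.5 CPM and did not pass against 2 months, and at 6 months it was above 2 months. The difference between the 2 experiments was not tested.

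*Gdf15* was 3.07 to 6.84 CPM at 2 months, 2.83 to 8.50 CPM at 6 months, and 9.82 to 13.6 CPM at 12 months, on 47 to 133 counts at 2 months and 169 to 281 counts at 12 months. The 12-month libraries were above all others, and the log2 fold change of 12 over 2 months was 1.35 (SE 0.33, adjusted p = 0.0227). In the time course, the log2 fold change was 0.23 (SE 0.24, adjusted p = 0.603). The call in the genotype experiment was lost without WT at 2 months L (adjusted p = 0.0623), KO at 2 months H (0.0652), KO at 2 months L (0.0701), or WT at 12 months H (0.0920). *Gdf15* followed the time of day in the time course, and the 2-month pairs were taken at ZT13 and ZT17 but the 12-month pairs at ZT5 and ZT21, so age and ZT cannot be told apart here.

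**Figure D4:**
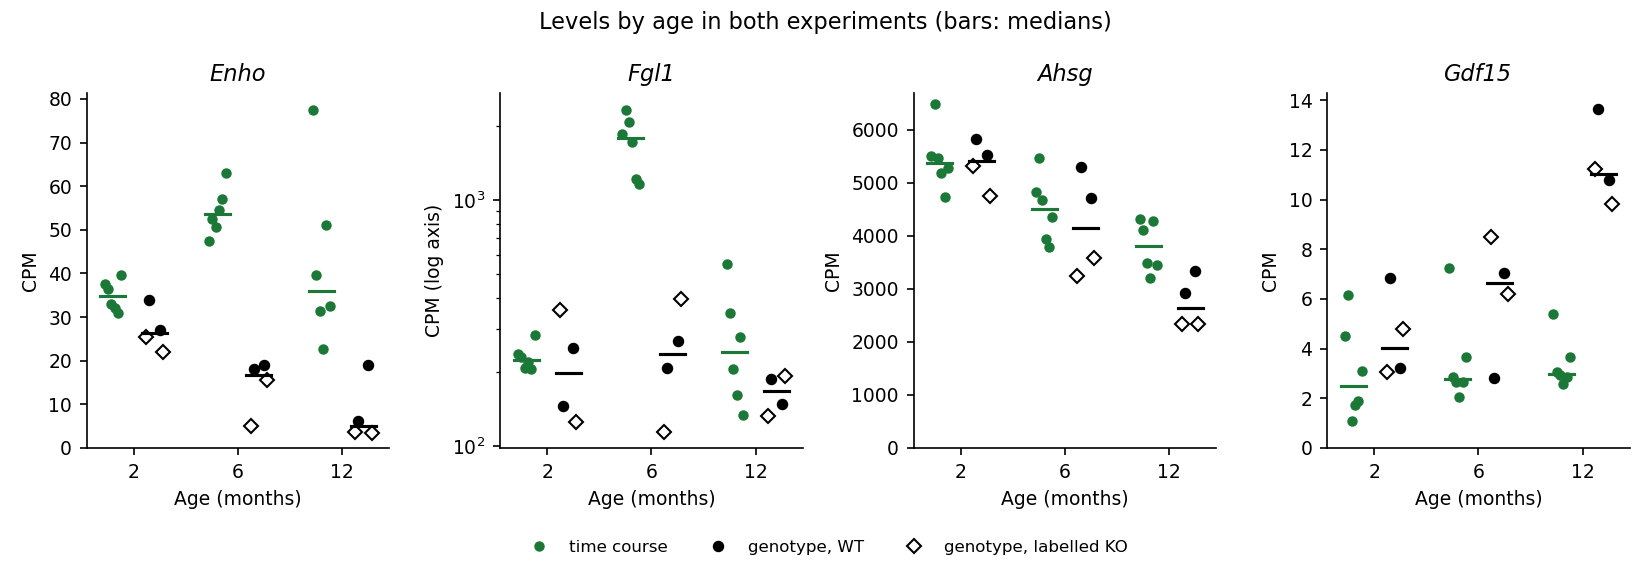
CPM of *Enho*, *Fgl1* (log axis), *Ahsg*, and *Gdf15* by age in months, with the time course in green (6 libraries per age) and the genotype experiment in black (4 libraries per age, filled for WT and open for KO), and bars at the medians. *Ahsg* is lower at 12 than at 2 months in both experiments, *Fgl1* stands out at 6 months in the time course, where its median is 1786 CPM, and *Enho* at 6 months lies above 2 months in the time course and below it in the genotype experiment.

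**Figure D5:**
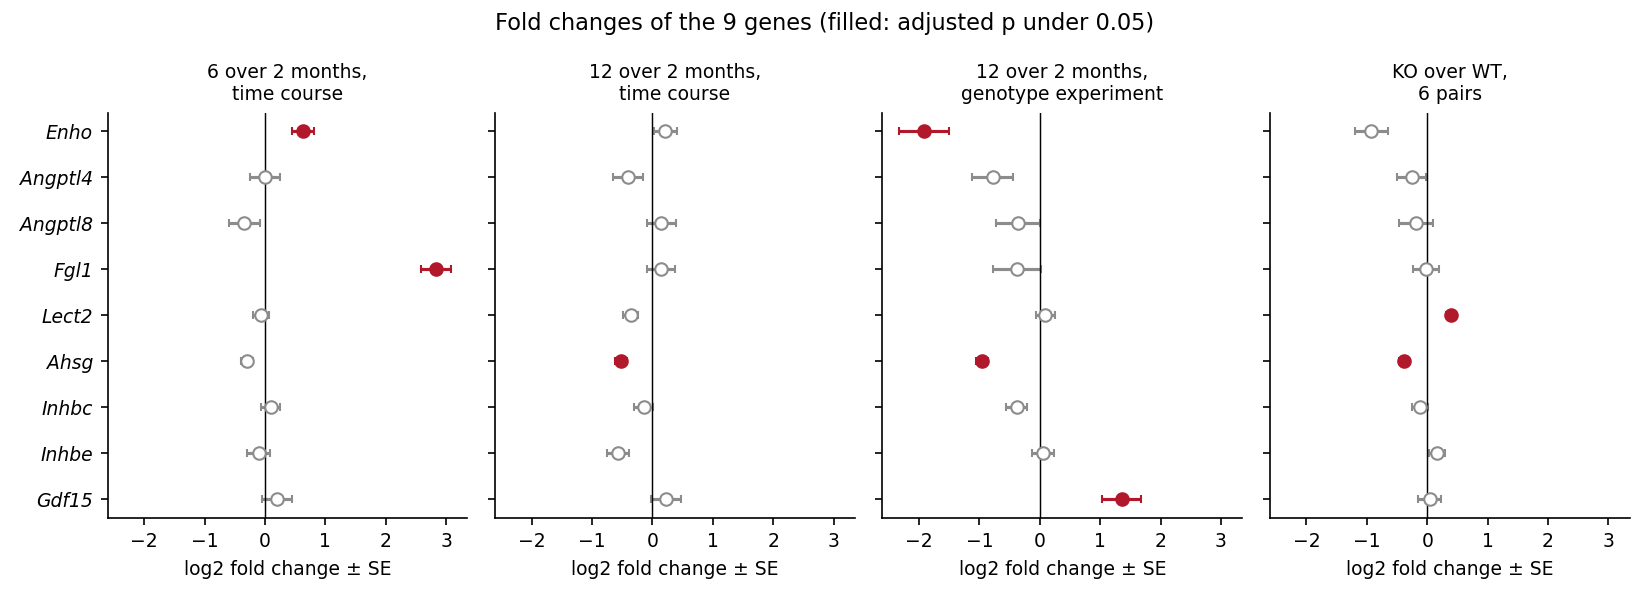
Log2 fold changes of the 9 genes with standard errors from edgeR, for 6 over 2 and 12 over 2 months in the time course, 12 over 2 months in the genotype experiment, and KO over WT over 6 pairs. Filled red points passed an adjusted p of 0.05; *Ahsg* passed in 3 of the 4 panels, as lower in each, and *Fgl1* at 2.84 is the farthest from 0.

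Other genes of the same pathways were counted from lists, with the calls of edgeR beside those over all genes: 6.41% higher and 6.35% lower at 6 over 2 months, 5.9% higher and 5.21% lower at 12 over 2 months, and 0.684% higher and 0.71% lower in KO. The lists are short, and nothing is read about a list from 1 or 2 calls. Of 15 other hepatokines, 4 were lower at 6 than at 2 months, with *F11* lowest (log2 fold change -0.82, SE 0.094). At 12 over 2 months, 2 were higher, *Fgf21* (2.51, SE 0.53) and *Fst* (1.17, SE 0.32), and *F11* was lower (-1.17, SE 0.10). *Fgf21* encodes a hormone of the fasting liver and was near its floor, at 0 to 0.343 CPM at 2 months. In KO, 3 of the 15 were lower, where 0.71% of all genes were, led by *Igfbp2* (-1.02, SE 0.15), beside a median of -0.27 for the list and -0.0074 for all genes. *F11* encodes coagulation factor XI, and *Igfbp2* a binding protein of insulin-like growth factors.

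The 9 genes on or beside lipoprotein lipase included *Lpl* and its anchor *Gpihbp1*. At 6 over 2 months, 4 of the 9 were lower and 1 was higher, and at 12 over 2 months 2 were lower and 1 was higher, where 12.8% and 11.1% of all genes passed. *Lpl* was lower in both (log2 fold change -0.68, SE 0.16 and -0.62, SE 0.16). Between WT and KO, 0 of the 9 passed in edgeR and 3 had an unadjusted p under 0.05, and DESeq2 called 0 of the 8 to which it gave an adjusted p. Their median log2 fold change was -0.23, beside -0.0074 over all genes.

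Of the activin pathway, 11 of 14 genes were tested. Of these, 1 passed at 6 over 2 months, 1 at 12 over 2 months, and 1 in KO, where 12.8%, 11.1%, and 1.39% of all genes passed. *Acvr2b*, a receptor of activins, was higher at 6 than at 2 months (log2 fold change 0.79, SE 0.21), *Fst*, which binds activins, was higher at 12 than at 2 months, and *Inhba*, another activin subunit, was lower in KO (-1.14, SE 0.17). Of 13 stress-response genes tested, which include known inducers of *Gdf15*, 2 were higher at 6 than at 2 months and 2 at 12 than at 2 months, where 6.41% and 5.9% of all genes were. *Asns*, asparagine synthetase, was among them both times (2.00, SE 0.29 and 1.15, SE 0.30), and was the 1 gene of the list called in KO, as higher (1.85, SE 0.28).

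PPAR-alpha induces *Angptl4* and genes of fatty acid oxidation in fasting. Of 14 of its targets, 4 were lower at 6 than at 2 months (6.35% of all genes), and 6 were higher and 1 lower at 12 than at 2 months (5.9% and 5.21% of all genes). Of 13 lipogenic genes, a class that follows feeding as *Angptl8* does, 3 were lower at 6 than at 2 months (6.35% of all genes). At 12 over 2 months 9 were higher (5.9% of all genes), and the medians were -0.48 and 1.03 on the log2 scale. At 12 over 6 months, 13 of the 13 and 8 of the 14 PPAR-alpha targets were higher (7.64% of all genes). These values are from the time course. In the genotype experiment at 12 over 2 months, 2 lipogenic genes were higher and 1 was lower, with a median of 0.058. Of the PPAR-alpha targets, 2 were higher and 1 was lower there, where 4.93% and 5.79% of all genes were. In KO, 1 lipogenic gene, *Mlxipl*, was lower (-0.38, SE 0.065), where 0.71% of all genes were. Of the 14 PPAR-alpha targets, 0 passed in KO in edgeR, 4 had an unadjusted p under 0.05, and DESeq2 called 2, with a median log2 fold change of -0.077 beside -0.0074 over all genes. Of the 16 acute-phase genes, 3 passed in KO, all lower, and they were the 3 fibrinogen genes *Fga*, *Fgb*, and *Fgg* (-0.39 to -0.48).

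Over the 18 time-course libraries, the genes whose log2 CPM was most like that of *Fgl1* were *Orm2*, *Hp*, and *Prtn3* (Pearson r = 0.984, 0.983, and 0.981). *Orm2* and *Hp* are genes of the acute phase, and *Prtn3* encodes a protease of neutrophils. Over the 12 genotype libraries, which did not enter that choice, their r with *Fgl1* was 0.624, 0.814, and 0.664. Among the genes most like *Angptl4* were *Il6ra* and *Rapgef4* (r = 0.895 and 0.831), with r of 0.713 and 0.856 over the genotype libraries. Those most like *Ahsg* were *Harbi1*, *Eprs*, and *Acsm2* (0.871, 0.862, and 0.860), with 0.223, 0.899, and 0.758.

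For the other genes, likeness in the time course was often not seen in the genotype libraries. *Enho* was most like *Ost4*, *Hist1h2bg*, and *Pllp* (r = 0.824, 0.804, and 0.786), with -0.030, -0.37, and 0.12 over the genotype libraries. *Angptl8* was most like *Smg6*, *Sirt3*, and *Adh1* (0.831, 0.796, and 0.786), with -0.15, 0.33, and 0.77. *Lect2* was most like *Ifi209*, *Fndc3a*, and *Gm8995* (0.883, 0.810, and 0.806), with 0.28, -0.46, and 0.42.

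Among the TGF-β ligands, *Inhbc* was most like *Zbtb40*, *Stx2*, and *Mfhas1* (r = 0.819, 0.792, and 0.773), with 0.16, -0.097, and 0.47 over the genotype libraries. *Inhbe* was most like *Gna12*, *Setd5*, and *Jmjd4* (0.856, 0.853, and 0.831), with 0.49, 0.51, and -0.35. *Gdf15* was most like *Dhrs9*, *Rai14*, and *Il22ra1* (0.846, 0.827, and 0.815), with 0.47, 0.026, and 0.68. These r describe libraries that share age and ZT, over 12470 genes searched for each, and are given without a test.

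Among the 9 genes themselves, *Enho* and *Fgl1* were the most alike in the time course (r = 0.738 over 18 libraries), where both were high at 6 months and in the 12-month ZT1 library, and their r over the 12 genotype libraries was 0.350. In the genotype libraries, *Enho* and *Ahsg* were the most alike (r = 0.919), and *Ahsg* and *Gdf15* the most opposed (-0.81), while the same pairs had r of 0.0913 and 0.126 in the time course. *Inhbc* and *Inhbe*, neighbours on chromosome 10, had r of 0.227 and 0.264 in the 2 experiments.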

How the data were processed

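The authors enriched poly(A) RNA from liver, trimmed reads with fastp, aligned them to mm10 with HISAT2, and deposited whole-number counts of reads per gene from featureCounts, without normalization. The annotation version is not given in the sources used here. No column of values was left out (0 unused columns). Libraries with 1 per condition were compared in edgeR 4.0.16 (R 4.3.3, limma 3.58.1) with TMM factors, filterByExpr, the quasi-likelihood F-test, and Benjamini-Hochberg adjustment over all genes tested at 0.05. Age was tested with ZT as a block, rhythm by the cosine and sine of 24 h, and genotype with a block for each pair. The block takes the WT and KO libraries of the same age and collection as a pair, since the labels give both. The exact permutation test within an age took the 12470 genes that averaged 1 CPM or more. Likeness used log2(CPM + 0.5). DESeq2 1.42.0 and the settings in the closing section were alternatives. The 95% interval of a library is the exact Poisson interval of its count, and says nothing of the spread between mice. The study's figure legends count mice per group for the RNA-seq, but not how mice were combined in a library. With 1 library per condition, p-values rest on the spread between libraries of different conditions, not between mice of 1 condition. No pair of libraries agreed within counting noise (mean chi-square per gene at least 22.8). The tests were tried on simulated counts first. The other steps were made in Python 3.11.15 (pandas 2.3.3, scipy 1.17.1, numpy 2.4.6), and the plots in matplotlib 3.10.9. Locations came from GENCODE M21 and promoters from RefSeq. The 9 genes, the pathway lists, and the tests were chosen with earlier results of these data known. All 9 genes are named in each comparison. From the lists, counts are given, with up to 3 called genes per list and comparison by largest fold change, and for each gene the 3 most alike by Pearson r, of which 1 for *Angptl4* is not reported here.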

Additional observations from a re-analysis of the deposited data

Results flagged for a closer look

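*Enho* moved in opposite directions with age in the 2 experiments. The ratio of the median CPM at 6 months to that at 2 months was 1.54 in the time course, where all 6 libraries at 6 months were above all 6 at 2 months. In the genotype experiment it was 0.638, where all 4 libraries at 6 months, 2 of WT and 2 labelled KO, were below all 4 at 2 months. At the ZT of the genotype collections, the time course held 50.6 CPM (ZT9) and 63.1 CPM (ZT21) at 6 months and 32.1 CPM (ZT13) and 31.0 CPM (ZT17) at 2 months. The difference between the experiments was not tested. No other of the 9 genes had ranges apart in opposite directions between the same ages. How many of all genes had such ranges was not counted, so how common this is between the 2 experiments is not known. Each condition held 1 library, so single libraries were not tested for standing apart within a condition.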

How the results depend on the processing

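Of 1381 values of single genes computed again, 1243 kept their direction and their side of the threshold, 55 lost a call, 32 gained one, and 51 turned in sign. The values that turned were uncalled in each case. Numbers of the 9 genes passing changed as follows. Without a filter on low counts, 3 passed at 12 over 2 months and 5 at 12 over 6 months. In that setting 1 passed for the change in rhythm between 2 and 6 months, and 1 for genotype by age. Of all genes, that setting called 133 for that change in rhythm and 100 for genotype by age, against 16 and 2 with the filter. DESeq2 gave 3 at 6 over 2 months, where *Ahsg* was gained, and 2 at 12 over 2 months. For rhythm it gave 4, where *Ahsg* was gained too. For the change in rhythm between 2 and 6 months DESeq2 gave 1, and it called 205 of all genes there. The fit on 2 ages alone gave 3 at 12 over 2 months. Where no number over all genes stands beside a count here, nothing is read from it about the 9 genes. Without the ZT block 1 passed at 6 over 2 months, and with ZT as a factor 1 passed for rhythm. Of all genes, 1146 and 1025 passed in these fits, against 1903 and 2154 in the fits described above. For WT against KO, 1 passed with median-of-ratios size factors, where *Lect2* was lost, and 1 with library totals, where *Ahsg* was lost. With H pairs alone, with L pairs alone, and without the 2 pairs in which *Egr1* was not lower in KO, 0 passed. Of all genes, 421 passed with library totals and 2, 59, and 17 in those fits of fewer pairs, against 214 with all pairs and TMM. Without the replicate block for the pairs, 0 passed and *Fgl1* and *Gdf15* turned to 0.11 and -0.0034 in log2 fold change. Of all genes, 38 passed there. With WT libraries alone 0 passed between 12 and 2 months in the genotype experiment. Of all genes, 34 passed there, against 1645 with both genotypes. Within an age, the cosine fit in edgeR gave 2 at 6 months and 0 at 12 months, and library totals gave 0 at 12 months. Leaving out 1 library at a time gave 1 to 3 for each pair of ages, 1 to 4 for rhythm, and 2 to 3 for age in the genotype experiment. Of all genes, as few as 1085 passed there at 12 over 2 months and 1480 at 12 over 6 months, against 1658 and 2229 with all libraries. For age in the genotype experiment as few as 841 passed, against 1645. Leaving out the libraries of 1 ZT at a time gave 0 to 1 for the change in rhythm between 2 and 6 months. From 0 to 69 of all genes passed in these fits. Leaving out 1 pair gave 0 to 1 for WT against KO, where as few as 45 of all genes passed. Fewer libraries enter these fits, and otherwise the cause was not tested.

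Turned values were as follows, all as log2 differences. At 6 over 2 months, *Angptl4* was 0.0034 with library totals, 0.013 without a filter, and 0.0043 in DESeq2. Leaving out 1 library gave -0.16 to 0.19 for *Angptl4*, -0.13 to 0.064 for *Lect2*, -0.034 to 0.17 for *Inhbc*, and -0.25 to 0.045 for *Inhbe*. At 12 over 2 months it gave -0.015 to 0.36 for *Enho*, -0.025 to 0.46 for *Angptl8*, and -0.090 to 0.36 for *Fgl1*. At 12 over 6 months, *Gdf15* was -0.031 without the ZT block and -0.12 to 0.15 without 1 library. For WT against KO, *Fgl1* was 0.11 with library totals and 0.25 with H pairs alone. H pairs alone gave 0.13 for *Angptl4*, 0.12 for *Inhbc*, and -0.027 for *Gdf15*, and L pairs alone gave 0.098 for *Angptl8*. Without 1 pair, *Angptl4* was -0.44 to 0.014, *Fgl1* -0.21 to 0.21, *Inhbc* -0.22 to 0.032, and *Gdf15* -0.15 to 0.16. For genotype by collection, *Ahsg* was -0.010 with median-of-ratios size factors, -0.079 with library totals, -0.028 without a filter, and -0.011 in DESeq2. For age in the genotype experiment, leaving out 1 library gave -0.035 to 0.21 for *Lect2* and -0.076 to 0.23 for *Inhbe*. Depth limits *Gdf15* most, with as few as 16 counts in a library.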
